A study of Mus musculus with 35 samples.

Results

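The PYHIN genes form 1 cluster on mouse chromosome 1 and encode proteins that, for the most part, join a pyrin domain to a DNA-binding HIN domain. The names followed were Ifi203, Ifi204, Ifi206, Ifi207, Ifi209, Ifi211, Ifi213, Mnda, Mndal and Aim2, of which 9 were found among the 32285 genes of the deposited tables of nuclei and of bulk RNA. Mnda matched no gene under that name, and RefSeq lists it as an older name of Ifi211. The members were chosen by family and by their measured levels in these nuclei, in which Ifi203 and Mndal led a group of CA3-like neurons. Levels across cell types are therefore a description, without a test, and tests between genotypes are those of a fit over all genes.

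The study measured mouse hippocampus of strain C57BL/6 by single-nucleus RNA-seq at 9 months of age and by bulk RNA-seq at 4 and 9 months. Nuclei came from 3 wild-type (WT) libraries, 3 libraries of PS19 mice, which carry a human tau transgene with a disease mutation driven by the Prnp promoter, 4 libraries of CLEAR mutant mice and 4 of CLEAR mutants crossed with PS19 (CLEAR_PS19). By what is known of the study, the CLEAR mutation lies in a binding element of the lysosomal regulator TFEB in a vacuolar ATPase gene. Each of the 4 groups held 1 female library (WT replicate 3, PS19 replicate 3, CLEAR replicate 4 and CLEAR_PS19 replicate 4) and otherwise males. Bulk RNA came from 5 WT and 4 PS19 libraries at 9 months and 6 WT and 6 PS19 libraries at 4 months, and no bulk library carried the CLEAR mutation. The labels do not say that replicates were separate animals, so p-values measure the spread between these libraries.

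Many PYHIN genes are switched on by interferons, which act through receptors, the kinases of the JAK family and STAT and IRF factors. Aim2 binds double-stranded DNA in the cytosol and recruits the adaptor Pycard and caspase 1 into an inflammasome, and Ifi204 is related to human IFI16 and can signal from DNA through Sting1. In brain the family is best known from microglia, where several members belong to the interferon-stimulated genes, and the other mouse members are less well understood.

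On build GRCm38 with GENCODE M21 gene models the family spans 681 kb, chr1:173350879-174031810. Its members lie in the order Aim2 (173350879-173466040, plus strand), Ifi206 (173468485-173491041, minus), Ifi213 (173566283-173599274, minus), Ifi209 (173630917-173647928, plus), Ifi207 (173723427-173741747, minus), Ifi204 (173747293-173766943, minus), Mndal (173849126-173942491, minus), Ifi211 (173896345-173913046, minus) and Ifi203 (173920407-173942672, minus). The Mndal model spans Ifi211 and overlaps Ifi203 on the same strand, and it shares 37 exon bases with Ifi203, so reads from its introns and theirs can be confused. The Aim2 model overlaps the gene Cadm3 (173333258-173367695), with 0 shared exon bases, and reads from that stretch of introns can be confused likewise. Single members differ in how well reads can be told apart. Of all 91-base stretches of its transcripts, 41.2% were found in no other gene of the family for Ifi211, which shared 38.2% with Ifi205 and 20.6% with Ifi204. That share was 81.1% for Ifi209, 88.6% for Ifi204, 91.2% for Ifi206, 93.0% for Mndal, 95.3% for Ifi213, 98.6% for Ifi203, 99.5% for Ifi207 and 100% for Aim2. Within the last 500 bases of the transcripts, where a 3' kit reads, it was 41.0% for Ifi211, 63.2% for Ifi209, 92.1% for Mndal, 92.7% for Ifi213 and 100% for the other 5. Values of Ifi211 are therefore uncertain in both assays, those of Ifi209 in nuclei, and those of Ifi209 and Ifi204 to a lesser degree in bulk RNA.

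Promoters of the members carried a shared short sequence, shown here because it is the response element of interferon, to which much of the family is known to respond, and because Ifi203 and Mndal are alike in it. Ifi209, which rose in microglia-like nuclei, lacks it, and Ifi203 and Mndal, which were too low to test there, carry it. The core of the interferon-stimulated response element was searched as GAAA, any 2 bases, GAAA, on both strands of the 300 bases around each start site in RefSeq (GRCm38.p6; 250 before and 50 after). It stood in 7 of the 10 promoters of the 8 matched members (70.0%), against 1131 of 32851 promoters of all genes (3.44%). Each window below has 10 bases on each side of the core, which is in capitals; all lie on chromosome 1, minus strand.
Ifi206, chr1:173491339-173491368: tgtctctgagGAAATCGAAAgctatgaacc
Ifi213, chr1:173599326-173599355: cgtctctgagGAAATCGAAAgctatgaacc
Ifi207, chr1:173741831-173741860: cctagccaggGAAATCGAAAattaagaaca
Ifi211, chr1:173913064-173913093: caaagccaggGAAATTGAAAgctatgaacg
Ifi203, chr1:173942508-173942537: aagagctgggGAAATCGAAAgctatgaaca
Mndal, chr1:173880204-173880233: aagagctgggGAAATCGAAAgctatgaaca
Mndal, other start site, chr1:173879993-173880022: ttttgagtcaTTTCTCTTTCtactcaaaac

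The windows of Ifi203 and Mndal were identical over 30 of 30 bases, and those of Ifi206 and Ifi213 over 29. Ifi211 shared 24 bases with Ifi203, Ifi213 shared 23 and Ifi207 shared 22. The core lay 35 to 73 bases before the start site in all 7. Neither Aim2 nor Ifi209 had the core in its window, nor did the other start site of Ifi203, and no sequence was matched for Ifi204. The window of Aim2 lay well inside its GENCODE M21 model, and the 5' end of that model was not searched. A match describes these letters only.
The 250 bases before the start of Ifi207, a member called higher in PS19 against WT in microglia-like nuclei and in bulk RNA at 9 months, and of Aim2, which has no core there, are given for contrast (core in capitals).
Ifi207, chr1:173741810-173742059, minus strand: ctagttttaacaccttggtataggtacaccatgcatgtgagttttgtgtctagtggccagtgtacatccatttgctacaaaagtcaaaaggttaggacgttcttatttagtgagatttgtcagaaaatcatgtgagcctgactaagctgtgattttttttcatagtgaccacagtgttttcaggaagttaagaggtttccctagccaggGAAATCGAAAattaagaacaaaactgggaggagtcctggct
Aim2, chr1:173420354-173420603, plus strand: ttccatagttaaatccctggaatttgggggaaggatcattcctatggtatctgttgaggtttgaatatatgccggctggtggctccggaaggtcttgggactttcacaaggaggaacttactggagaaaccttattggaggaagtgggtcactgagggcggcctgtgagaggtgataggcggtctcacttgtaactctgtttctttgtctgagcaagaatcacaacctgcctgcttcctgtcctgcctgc

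After doublets were removed, 132322 nuclei of 144991 barcodes remained, 7171 to 14563 in each library, with 39940000 to 83580000 unique molecular identifiers (UMIs; totals are rounded to 10000). Of the barcode sequences, 1.83% (2608) occurred in more than 1 library. Libraries were cut into 3 sets, a number chosen beforehand, by the profiles of their granule neuron-like nuclei. Set 1 held replicates 1 and 2 of WT and PS19 with replicate 3 of CLEAR and CLEAR_PS19, set 2 held the 4 female libraries, and set 3 held replicates 1 and 2 of CLEAR and CLEAR_PS19, so that set 2 and sex cannot be told apart. Replicates 1 and 2 of CLEAR and those of CLEAR_PS19 were far more alike than other replicates, with a chi-square per gene of 3.79 and 4.96 against 39.7 to 122.7 in all other pairs within a genotype. They were not identical and are counted as separate libraries. Clusters were made with all PYHIN genes left out, and 9304 microglia-like and 5159 CA3 neuron-like nuclei were named from marker genes. Bulk libraries held 9630000 to 17180000 counts. Levels below are CPM, the UMIs or reads of a gene scaled to the total of the same class and library. They are not compared between genes.

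The members fell into 3 kinds by cell class, with levels given as mean CPM over the libraries that held at least 10 nuclei of the class. Ifi204, Ifi206, Ifi207, Ifi209, Ifi211 and Ifi213 were largely microglial by share of UMIs: microglia-like nuclei, 7.03% of all, held 92.1% of the UMIs of Ifi204, 86.8% of Ifi207, 86.1% of Ifi209, 80.8% of Ifi211, 75.7% of Ifi206 and 72.6% of Ifi213. They were not particular to that class. Border macrophage-like nuclei, only 0.18% of all, held 3.74% of the UMIs of Ifi204, 9.64% of Ifi207 and 5.05% of Ifi209. They also held 6.775% of Ifi211, 3.45% of Ifi206 and 12.5% of Ifi213. These shares pool all libraries, and most of the microglial UMIs of Ifi204 came from PS19 libraries, as listed below. Ifi203 and Mndal were instead found in CA3 neuron-like nuclei, which were 3.90% of all and held 64.3% of the UMIs of Ifi203 and 60.4% of Mndal. The next largest share of both, 12.1% of Ifi203 and 15.45% of Mndal, was in nuclei left unnamed (8.04% of all), most of it in cluster 8, of 3081 nuclei led by Col6a1, Vgll3 and Dcn. That cluster had 13.9 CPM of Ifi203 and 27.8 of Mndal. Its best marker score was that of CA3 neurons (1.04), with CA1 neurons next (0.77). It was left unnamed because its leading genes held Dcn, a gene of the fibroblast list, and no CA3 marker. Its nuclei had a median of 2.57 times the median UMIs of their library, against 0.5 in the fibroblast-like cluster. UMIs of Aim2 were spread widely, with 13.3% in microglia-like and 11.4% in CA3 neuron-like nuclei. Such shares also follow the depth of a class. As CPM, Aim2 was far higher in microglia-like than in CA3 neuron-like nuclei, as given below, and was lowest in astrocyte-like nuclei.

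Relative to all UMIs of a class, Ifi203 was highest in the rare T cell-like nuclei, at 801 ± 53.4 CPM (SD, n = 3 libraries; 108 nuclei in all). Border macrophage-like nuclei followed at 410 ± 161 (n = 10; 238 nuclei), then pericytes and smooth muscle at 120 ± 66.8 (n = 13), CA3 neuron-like nuclei at 33.5 ± 9.44 (n = 14), endothelial-like nuclei at 22.1 ± 32.0 (n = 14) and mossy cell-like nuclei at 11.5 ± 6.82 (n = 13). Mndal ran in a like order, with 1015 ± 295 CPM in T cell-like, 395 ± 117 in border macrophage-like, 145 ± 52.4 in pericyte and smooth muscle-like, 70.6 ± 22.3 in mossy cell-like, 49.8 ± 11.5 in CA3 neuron-like and 30.9 ± 35.5 in endothelial-like nuclei. Every T cell-like library lay above every border macrophage-like library in both genes. The ranges of border macrophage-like nuclei and pericytes overlapped, as did those of CA3 neuron-like, endothelial-like and mossy cell-like nuclei. Granule neuron-like nuclei, at 1.25 CPM of Ifi203 and 2.02 of Mndal, and CA1 neuron-like nuclei, at 0.75 and 0.96, lay far below the CA3 class.

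Other members had classes of their own. In T cell-like nuclei Ifi213 stood at 641 ± 151 CPM and Ifi206 at 358 ± 86.7, while no UMI of Ifi207 or Ifi211 was seen there. Border macrophage-like nuclei had Ifi207 at 346 ± 214 and Ifi213 at 197 ± 157, and they held 90.6% of all UMIs of Ifi202b, a relative whose protein lacks the pyrin domain and can block Aim2. Microglia-like nuclei had Ifi204 at 74, Ifi207 at 45 and Aim2 at 298 CPM on average over all 14 libraries, a mean that spans very unlike genotypes. These levels depend on the removal of doublets: with doublets kept, border macrophage-like nuclei had Mndal at 225, Ifi207 at 229 and Ifi213 at 121 CPM, and microglia-like nuclei had Ifi204 at 47, Ifi207 at 29.3 and Aim2 at 198. A small cluster of 55 granule neuron-like nuclei led by the interferon-stimulated genes Ifit1, Iigp1 and Usp18 had 46.2 CPM of Ifi203 and 48.5 of Mndal, above the granule class as a whole.

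**Figure D1:**
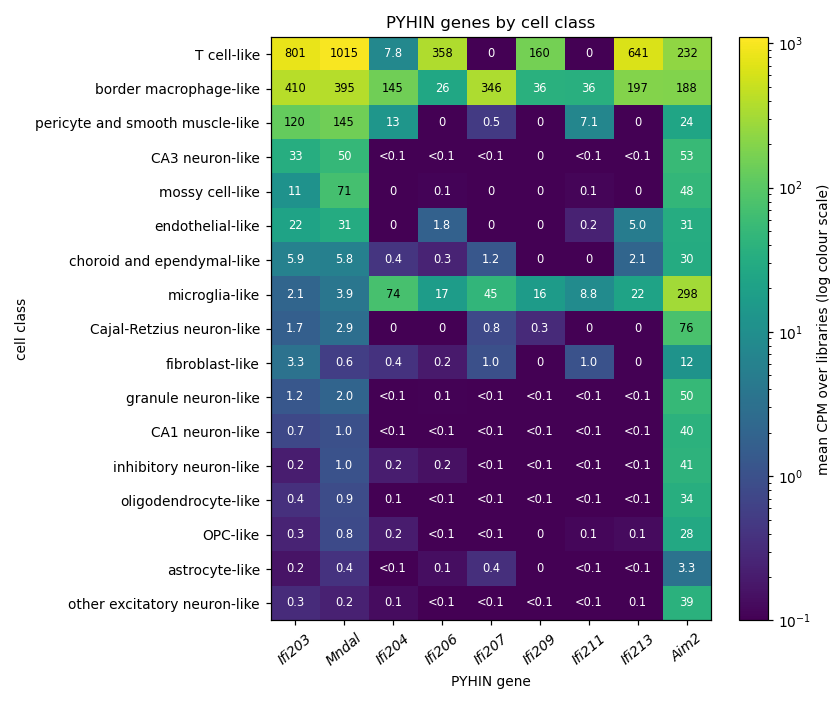
Mean level of each member in each cell class, in CPM on a logarithmic colour scale with the value printed in each cell, over libraries with at least 10 nuclei of the class. Ifi204 and Ifi207 are filled in for microglia-like and border macrophage-like nuclei, whereas Ifi203 and Mndal are highest in T cell-like nuclei (801 and 1015) and are present in CA3 neuron-like nuclei (33.5 and 49.8).

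In microglia-like nuclei 6 members were far higher in PS19 than in WT mice, and Aim2 was not. Ifi204, the DNA sensor, stood at 11.7, 1.53 and 26.7 CPM in the WT libraries (9, 1 and 17 UMIs) and at 190.5, 328.4 and 141.5 in the PS19 libraries (542, 1152 and 172 UMIs), in replicate order. Every PS19 library was thus above every WT library, within set 1 (replicates 1 and 2) and within set 2 (replicate 3) alike. Ifi207 was 2.61, 0 and 17.3 CPM in WT, where the 0 allows up to 4.58, against 113.2, 252.5 and 83.1 in PS19. Ifi213 was 2.61, 0 and 3.14 CPM in WT and 35.5, 158.5 and 46.9 in PS19. These groups did not overlap either, and PS19 replicate 2 was the highest library for each of the 3 genes.

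Ifi209 was 6.52, 3.05 and 14.2 CPM in WT and 29.2, 70.1 and 35.4 in PS19. Ifi206 was 7.82, 3.05 and 7.86 in WT and 21.8, 73.0 and 35.4 in PS19. Ifi211, whose reads are shared with Ifi205 and Ifi204, was 0, 0 and 6.29 in WT and 18.3, 51.9 and 18.9 in PS19. The lowest PS19 library exceeded the highest WT library in all 3, and replicate 2 again stood highest. How many of all genes separated in this way was not counted, here or in the comparisons below. In this comparison 2189 of 10295 genes had an unadjusted p under 0.05 by edgeR. Aim2, the inflammasome sensor, was 296, 301 and 237 CPM in WT and 356, 374 and 237 in PS19, so that its groups overlapped.

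By edgeR's quasi-likelihood test with Benjamini-Hochberg adjustment over all genes, 6 of the 7 members that passed the filter on low counts rose in PS19 against WT, beside 9.59% of the 10295 genes tested (5.35% higher and 4.24% lower). These 6 passed the filter through their levels in the tau libraries, so that the count over members that passed is a description. The changes, as log2 fold change, were 5.26 for Ifi213 (SE 0.789, adjusted p = 0.000834), 4.44 for Ifi207 (SE 0.717, adjusted p = 0.00126), 3.99 for Ifi204 (SE 0.49, adjusted p = 0.00025), 3.83 for Ifi211 (SE 0.824, adjusted p = 0.00722), 2.76 for Ifi206 (SE 0.567, adjusted p = 0.00548) and 2.47 for Ifi209 (SE 0.467, adjusted p = 0.00314). Aim2 differed by 0.15 (SE 0.133, adjusted p = 0.588). With the library set as a block the same 6 members were called, and without WT replicate 1, WT replicate 2 or PS19 replicate 2 the call of Ifi211 was lost.

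Ifi203 and Mndal were too low in microglia-like nuclei to enter the test. PS19 replicate 2 held 51 UMIs of Ifi203 (14.5 CPM) and 55 of Mndal (15.7 CPM), against 1.05 and 0 CPM of Ifi203 in the other PS19 libraries. The same library had the highest summed level of border macrophage markers among microglia-like nuclei, at 112 CPM, and of T cell markers, at 11.1 CPM. Their part in these 2 values was not tested. Of the relatives outside the list, Ifi208 had no UMI in any WT or CLEAR library and 8, 21 and 6 UMIs in PS19, and Ifi214 had 3, 28 and 7 UMIs in PS19, and neither was tested.

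On the CLEAR background Ifi204 was again higher with the tau transgene and passed the test, and no other member did. Ifi204 was 12, 7.70, 9.01 and 17.4 CPM in CLEAR and 61.4, 71.5, 107.9 and 52.0 in CLEAR_PS19. Ifi207 was 3.99, 1.28, 1.5 and 7.46 in CLEAR and 30.4, 26.8, 72.5 and 19.99 in CLEAR_PS19. Neither gene's groups overlapped, and CLEAR_PS19 replicate 3, of set 1, was the highest library in both. Ifi213 was 2.66, 0, 3.00 and 4.97 in CLEAR against 15.5, 16.1, 12.3 and 9.33 in CLEAR_PS19, with replicate 3 not the highest.

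One of the 7 members was called in CLEAR_PS19 against CLEAR, beside 0.311% of all genes: Ifi204, by 2.65 (SE 0.452, adjusted p = 0.016). Ifi207 differed by 3.35 (SE 0.752, adjusted p = 0.0555), Ifi213 by 2.23 (adjusted p = 0.269), Ifi211 by 2.03 (adjusted p = 0.467), Ifi209 by 1.36 (adjusted p = 0.285) and Ifi206 by 1.35 (adjusted p = 0.352). Aim2 differed by 0.06 (adjusted p = 0.931). By unadjusted p of edgeR, 6 members lay under 0.05, all of them higher, as did 1088 of the 10295 genes in either direction. DESeq2 called 2 members. Same-numbered libraries of these 2 groups varied together, as did unlike numbers within set 3. With the replicate number as a block 2 members were called by edgeR, Ifi204 and Ifi207 (adjusted p = 0.0413). The single call was lost when CLEAR replicate 1, 2 or 3 was left out.

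With the tau transgene in both groups, the CLEAR mutation went with lower values of the same 6 members, none of which passed the threshold. The CLEAR_PS19 libraries of Ifi204 (52.0 to 107.9 CPM) all lay below the PS19 libraries (141.5 to 328.4). Within set 1 the values were 107.9 in CLEAR_PS19 and 190.5 and 328.4 in PS19, within set 2 they were 52.0 and 141.5, and set 3 held no PS19 library. The log2 fold changes of CLEAR_PS19 against PS19 were -2.65 for Ifi213 (SE 0.453, adjusted p = 0.0643), -2.39 for Ifi211 (adjusted p = 0.0767), -1.96 for Ifi207 (adjusted p = 0.0812), -1.81 for Ifi209 (adjusted p = 0.0734), -1.58 for Ifi204 (adjusted p = 0.0734), -1.44 for Ifi206 (adjusted p = 0.122) and -0.10 for Aim2 (adjusted p = 0.748).

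None of the 7 members was called by edgeR there, beside 0.0194% of all genes. By unadjusted p, 6 members lay under 0.05, as did 1474 of the 10295 genes tested, and 1 member, Ifi213, was called by DESeq2. Leaving out PS19 replicate 3 or CLEAR_PS19 replicate 3 gave 5 calls. Keeping doublets, or using no filter on low counts, gave 6 with every library in. The count thus rests on single libraries and on processing choices. CLEAR against WT gave no member call by edgeR or DESeq2, beside 0% of all genes called by edgeR. No member had an unadjusted p under 0.05, beside 588 of 10295 genes, and member values ran from -0.87 for Ifi207 to 0.38 for Ifi213. The difference between the 2 tau effects, tested as an interaction, was -3.03 for Ifi213 (SE 1.46, adjusted p = 0.708) and -1.35 for Ifi204 (adjusted p = 0.757). No member was called in it by edgeR or DESeq2, beside 0% of all genes called by edgeR. None had an unadjusted p under 0.05, beside 738 of 10295 genes.

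**Figure D2:**
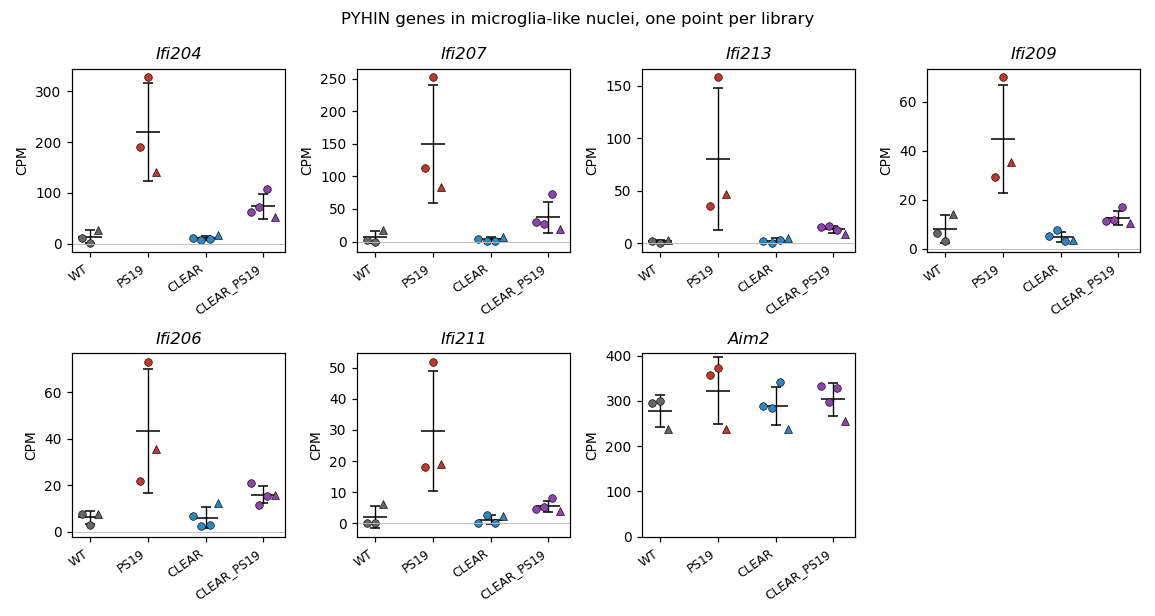
CPM of members in microglia-like nuclei of each library, by genotype; circles are male and triangles female libraries, and the dash with bars is the mean ± SD. Ifi204 lies between 1.53 and 26.7 in WT and between 141.5 and 328.4 in PS19, with CLEAR_PS19 between 52.0 and 107.9, while Aim2 overlaps in all groups.

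Summed over the members, microglia-like nuclei had 319 ± 11.5 CPM in WT (SD, n = 3) and 322 ± 31.7 in CLEAR (n = 4), against 902 ± 387 in PS19 (n = 3) and 468 ± 81.7 in CLEAR_PS19 (n = 4). Aim2 made up most of this sum in WT. Without it, an alternative added after the levels were seen, the sums were 41.0 ± 36.6 and 33.5 ± 14.1 CPM in WT and CLEAR, and 580 ± 334 and 164 ± 51.9 in PS19 and CLEAR_PS19. After each nucleus was thinned to 1000 UMIs, 17% of PS19 microglia-like nuclei had a UMI of Ifi204, 6.43% in CLEAR_PS19, 1.07% in CLEAR and 0.692% in WT (31.0%, 8.80%, 1.45% and 1.40% before thinning). Thinning left out 63, 83, 212 and 786 nuclei of WT, PS19, CLEAR and CLEAR_PS19, and 0.0152% of oligodendrocyte-like nuclei, which should lack the gene, had a UMI after it.

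Microglia-like nuclei came from 2 main clusters, 9, led by Siglech, Inpp5d, Selplg and Csf1r, and 16, led by Apobec1, Ly86, Cd84, Ptprc and Runx1. Cluster 16 made up 4.30%, 2.11% and 5.05% of microglia-like nuclei in the WT libraries and 4.57% to 8.53% in the CLEAR libraries, against 95.8%, 98.3% and 47.9% in PS19 and 19.5%, 12%, 78.5% and 13% in CLEAR_PS19. These shares are named as context for the levels, since genes that define the clusters differ between the genotypes.

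Within cluster 16 the ranges of Ifi204 overlapped between all genotypes: 251 ± 70.8 CPM in PS19 (n = 3), 186 ± 53.7 in CLEAR_PS19 (n = 4), 127 ± 102 in CLEAR (n = 4) and 194 ± 201 in WT (n = 2 libraries with at least 10 nuclei, of 43 nuclei in all). The WT and CLEAR values rest on 16 and 23 UMIs. Ifi207 was 173 ± 72.8 CPM in PS19, 101 ± 19.0 in CLEAR_PS19, 60.5 ± 53.1 in CLEAR and 146 ± 133 in WT. Its WT and CLEAR values rest on 12 and 11 UMIs, with an SD close to the mean, and the WT libraries ranged from 52.1 to 240.1. Ifi213 was 91.6 ± 62.9, 40.4 ± 18.3, 32.5 ± 29.2 and 12 ± 17 CPM in the same order.

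Within cluster 9 Ifi204 kept an order by genotype, at 63.5 ± 41.4 CPM in PS19 (30 UMIs), 25.9 ± 4.76 in CLEAR_PS19 (76 UMIs), 5.91 ± 4.85 in WT (11 UMIs) and 4.52 ± 2.48 in CLEAR (12 UMIs). Its lowest PS19 library (38.4) was above the highest WT library (11.1), and its lowest CLEAR_PS19 library (18.8) above the highest CLEAR library (7.27). Ifi207 in cluster 9 was 6.63 ± 6.41 CPM in PS19 and 4.50 ± 3.37 in CLEAR_PS19, against 0.56 in WT and no UMI in CLEAR. Aim2 stayed between 285 and 302 CPM on average in cluster 9 and between 224 and 327 in cluster 16. No test was run within clusters.

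**Figure D3:**
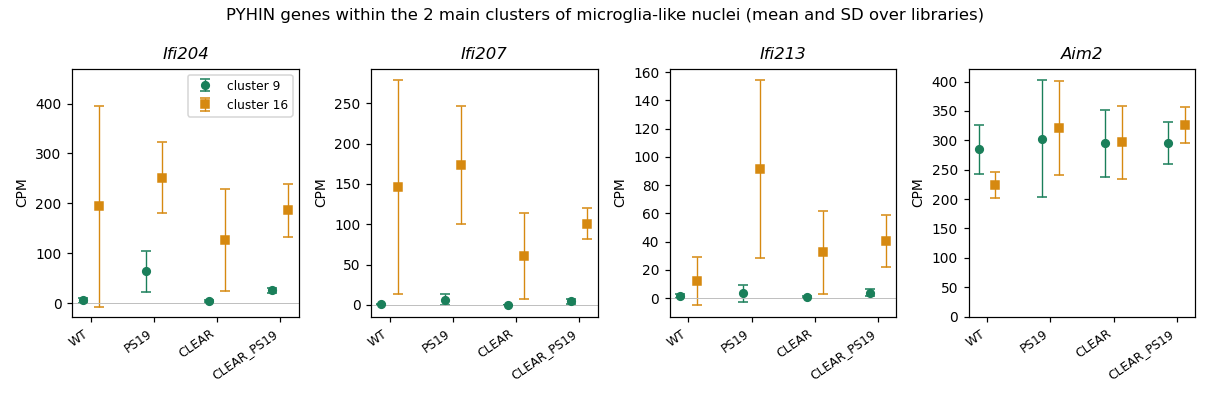
Mean ± SD of CPM over libraries with at least 10 nuclei for Ifi204, Ifi207, Ifi213 and Aim2 in the 2 main microglia-like clusters, by genotype. In cluster 16 the bars of Ifi204 overlap between genotypes (127 to 251), in cluster 9 it is 63.5 in PS19 and 25.9 in CLEAR_PS19 against 5.91 in WT and 4.52 in CLEAR, and Aim2 is 285 to 302 in cluster 9 and 224 to 327 in cluster 16.

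Markers of cell types moved with genotype in microglia-like nuclei. The summed level of 10 microglia markers was 6681 to 9052 CPM in PS19, below the 10280 to 10760 of WT and the 10240 to 11340 of CLEAR, and was 8830 to 12430 in CLEAR_PS19. The 7 border macrophage markers summed to 17.3 to 112 CPM in PS19 and 5.40 to 49.0 in CLEAR_PS19, against 1.53 to 28.3 in WT and 5.14 to 30.04 in CLEAR, with 1 to 3 of them at 0 in PS19 libraries and 3 to 6 in WT. The 6 T cell markers summed to 2.46 to 11.1 CPM in PS19 and 0 to 2.61 in WT, and the T cell marker Cd8a was at 0 in every PS19 library. Their part in the results of microglia-like nuclei was not tested.

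Ifi203 and Mndal in CA3 neuron-like nuclei were the other main pattern, and no member passed the threshold between genotypes there. The nuclei formed 1 cluster, and Mndal was among its 10 leading genes although it took no part in the clustering. Of the 5159 nuclei, 1789 (34.7%) had a UMI of Ifi203, 2426 (47.0%) of Mndal and 1217 (23.6%) of both. After thinning to 1000 UMIs, which left out 16 nuclei, the shares were 3.38% (exact 95% interval 2.91 to 3.91) and 4.49% (3.94 to 5.09). The same shares were 0.0784% and 0.0357% in CA1 neuron-like, 0.128% and 0.246% in granule neuron-like and 0.0240% and 0.0959% in OPC-like nuclei. The median depth was 17260 UMIs in CA3, 11548 in CA1, 7039 in granule neuron-like and 3729 in OPC-like nuclei, and intervals cover counting error only.

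By library, Ifi203 in CA3 neuron-like nuclei was 25.3, 13.3 and 24.6 CPM in PS19 and 38.2, 29.1 and 28.4 in WT. It was 44.5, 43.3, 28.3 and 27.4 in CLEAR_PS19 and 41.1, 41.1, 42.5 and 41.3 in CLEAR. Mndal was 29.0, 26.4 and 43.5 in PS19 and 53.8, 46.7 and 56.0 in WT, and 62.5, 60.1, 45.4 and 43.6 in CLEAR_PS19 and 57.6, 61.7, 50.9 and 59.6 in CLEAR. The PS19 libraries were the lowest 3 of all 14 for both genes, though for Mndal PS19 replicate 3, at 43.5, was all but equal to CLEAR_PS19 replicate 4, at 43.6. How many of all genes had this order was not counted. For both genes the CLEAR_PS19 libraries of set 3 (replicates 1 and 2) were above those of sets 1 and 2. Aim2 had no such order. It was 52.6, 41.4 and 83.1 CPM in PS19 and 37.7, 35.6 and 69 in WT, and 44.6, 41.5, 44.3 and 73.7 in CLEAR_PS19 and 59.3, 56.5, 40.8 and 64.9 in CLEAR, the female library being the highest of each group.

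In PS19 against WT the log2 fold changes were -0.67 for Mndal (SE 0.154, adjusted p = 0.426), -0.57 for Ifi203 (SE 0.212, adjusted p = 0.943) and 0.34 for Aim2 (SE 0.13, adjusted p = 0.993). None of the 3 members that passed the filter was called by edgeR, beside 0.0408% of 14718 genes. By unadjusted p all 3 lay under 0.05, as did 668 of the 14718 genes, and 1 member, Mndal, was called by DESeq2. In CLEAR_PS19 against PS19 Mndal differed by 0.68 (SE 0.148, adjusted p = 0.235) and Ifi203 by 0.70 (SE 0.202, adjusted p = 0.345). There edgeR called no member beside 0.0272% of all genes. By unadjusted p 2 members lay under 0.05, as did 1267 of 14718 genes, and 1 member, Mndal, was called by DESeq2.

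On the CLEAR background, CLEAR_PS19 differed from CLEAR by -0.19 for Ifi203, -0.09 for Mndal and -0.13 for Aim2 (adjusted p = 0.999 for each in edgeR's test). No member was called there by edgeR or DESeq2, beside 0.0204% of genes called. None had an unadjusted p under 0.05, beside 618 of 14718 genes. CLEAR differed from WT by 0.32, 0.10 and 0.29 for the same genes (adjusted p = 0.888, 0.916 and 0.888). No member was called by edgeR or DESeq2 beside 0.00679% of all genes, and 1 had an unadjusted p under 0.05, as did 654 of 14718 genes. PS19 against WT and CLEAR_PS19 against PS19 share the PS19 libraries, and leaving out PS19 replicate 3 gave a call of Mndal in both.

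The CA3 marker genes summed to 2403 to 3197 CPM over the libraries, with groups that overlapped, and microglia markers to 88 to 191 CPM in these nuclei. The share of CA3 neuron-like nuclei with a UMI of Ifi203 after thinning was 1.77% in PS19 against 3.36% in WT, and 3.91% in CLEAR_PS19 against 3.69% in CLEAR, and that of Mndal was 3.18% and 4.27%, and 5.09% and 4.67%, in the same order.

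**Figure D4:**
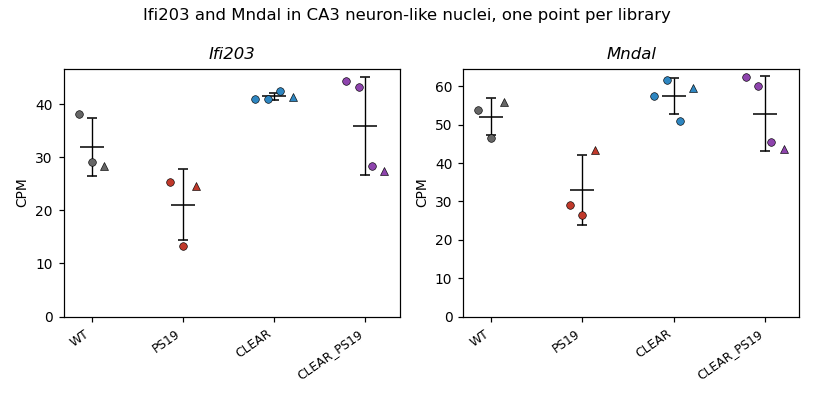
CPM of Ifi203 and Mndal in CA3 neuron-like nuclei of each library, by genotype. Circles are male and triangles female libraries, and the dash with bars is the mean ± SD. The 3 PS19 libraries are the lowest for Ifi203 (13.3 to 25.3) and Mndal (26.4 to 43.5), but for Mndal the highest of them all but equals the lowest CLEAR_PS19 library. No member was called between genotypes by edgeR.

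With all nuclei of a library summed, all 9 members passed the filter and the same 6 members as in microglia-like nuclei were called in PS19 against WT, beside 6.14% of 22080 genes (4.08% higher). All but Ifi204 of these 6 again passed the filter through their levels in the tau libraries, so that the count is a description. Their log2 fold changes ran from 4.17 for Ifi206 and 4.59 for Ifi209 to 4.75 for Ifi211, 5.08 for Ifi207, 5.24 for Ifi204 and 6.00 for Ifi213 (adjusted p = 0.00281 to 0.00824). The relative Ifi214 was called too, by 5.46 (adjusted p = 0.0303). Aim2 differed by 0.31 (adjusted p = 0.0835) and was called by DESeq2 (adjusted p = 0.021) and with the library set as a block (adjusted p = 0.027). Without WT replicate 2 the call remained for 3 of the 6, Ifi204, Ifi206 and Ifi209. The summed level of the members was 97.7 ± 29.4 CPM in PS19 against 56.8 ± 9.04 in WT (n = 3 each), and 66.6 ± 4.05 in CLEAR_PS19 against 63.0 ± 6.29 in CLEAR (n = 4 each). Sums over all nuclei alone cannot tell more cells of a type from more RNA per cell, and the same holds for bulk RNA. Microglia-like nuclei numbered 1089, 1406 and 712 in PS19 (of 10147, 9323 and 8366 nuclei). In WT they numbered 395, 284 and 396 (of 10133, 7171 and 8413). The level of the 6 members within microglia-like nuclei was higher in PS19 too, as given above. The part of each in the sums was not tested.

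No member was called by edgeR in CLEAR_PS19 against CLEAR (beside 0.0543% of all genes, 0.0317% higher), in CLEAR against WT (0.00453%) or in CLEAR_PS19 against PS19 (0.0136%) over all nuclei. At an unadjusted p under 0.05 stood 4, 0 and 7 of the 9 members, beside 1555, 1050 and 3323 of 22080 genes. DESeq2 called 1 member beside 223 genes in CLEAR_PS19 against CLEAR, 0 beside 1 gene in CLEAR against WT, and 5 members in CLEAR_PS19 against PS19. In endothelial-like nuclei no member passed the filter on low counts.

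The other classes were not tested, and their members are described by their summed level. Border macrophage-like nuclei had 2307 ± 531 CPM in PS19 (n = 3), 1494 ± 235 in CLEAR_PS19 (n = 3) and 1643 ± 285 in CLEAR (n = 3), with 1440 in the 1 WT library that held at least 10 nuclei. The lowest PS19 library, at 1962 (55 UMIs in 14 nuclei), was little above the highest of the other genotypes, at 1853 (65 UMIs in 19 nuclei). So small a gap on so few UMIs does not separate the groups. T cell-like nuclei reached 10 in 2 PS19 libraries, at 2732 and 3830 CPM, and in 1 CLEAR_PS19 library, at 3084, and in no WT or CLEAR library. Pericytes and smooth muscle had 374 ± 61.4 in PS19 against 236 ± 89.4 in WT (n = 3 each) and 391.5 ± 117 in CLEAR_PS19 (n = 3) against 257 ± 90.0 in CLEAR (n = 4). The groups overlapped on the CLEAR background, where CLEAR reached 379.8 and the lowest CLEAR_PS19 library kept was 302. CLEAR_PS19 replicate 4, left out with 9 nuclei and 2 UMIs of the members, stood at 68.7, below every CLEAR library. Other classes went the other way on that background. Mossy cell-like nuclei had 91.5 ± 26.7 in CLEAR_PS19 (highest 116.3) against 158 ± 34.0 in CLEAR (lowest 118.1; n = 4 each), and 137 ± 25.7 in WT (n = 3) with 83.7 and 205.3 in the 2 PS19 libraries. Cajal-Retzius neuron-like nuclei had 115 ± 16.1 in PS19 against 55.1 ± 14 in WT (n = 3 each), with no overlap, and 70.9 ± 48.4 in CLEAR_PS19 against 88.6 ± 26.2 in CLEAR (n = 4 each), with overlap, on 6 to 30 UMIs in a library, nearly all of them of Aim2 (196 UMIs, with 8 of Mndal next). Granule neuron-like nuclei, where Aim2 makes up nearly all of the sum, were 52.3 ± 9.22 CPM in WT and 57.0 ± 15.9 in PS19, a difference smaller than the spread, and oligodendrocyte-like nuclei were 32.9 ± 4.26 and 39.2 ± 10.6.

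Bulk RNA held few reads of the family, and 4 of the 9 members passed the filter: Ifi203, Ifi207, Mndal and Aim2. Reads were counted without regard to strand, per the header of a deposited file, so overlapping genes can share them. Ifi207 at 9 months was 0.360, 0.167, 0.361, 0.0813 and 0.255 CPM in WT (5, 2, 6, 1 and 4 counts) and 0.333, 0.854, 0.775 and 4.63 in PS19 replicates 1, 3, 4 and 5 (4, 11, 9 and 61 counts). Replicate 1 of PS19 lay among the WT libraries, and replicate 5 was far above all others. At 4 months Ifi207 had 2 to 12 counts in WT and 1 to 5 in PS19.

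Ifi207 rose at 9 months by 2.68 on the log2 scale (SE 0.644, adjusted p = 0.00713, edgeR), the 1 member called of 4, beside 12.8% of 16133 genes (7.68% higher). Ifi207 passed the filter largely through its levels in PS19 at 9 months, so that the counts of members called in bulk RNA are descriptions. From 4 to 9 months in PS19 Ifi207 rose by 2.81 (SE 0.629, adjusted p = 0.00315), and the PS19 effect differed between the ages by 3.62 (SE 0.953, adjusted p = 0.0254). Without PS19 replicate 5 these values were 1.34 (adjusted p = 0.172), 1.48 (adjusted p = 0.0984) and 2.28 (adjusted p = 0.112), and no call of Ifi207 was left. With only the compared libraries in the fit Ifi207 did not pass the filter in either of the first 2 comparisons and had no call. The difference between the ages was also not called with the replicate block (3.23, adjusted p = 0.061) or without WT replicate 5 at 4 months (3.48, adjusted p = 0.0524). Without the filter on low counts Ifi204, Ifi207, Ifi209 and Ifi213 were called at 9 months. Without WT replicate 4 at 4 months, which had its highest count at that age, Ifi207 did not pass the filter on low counts and had no value.

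Replicate 5 of PS19 at 9 months was high across the microglial members. It held 78 counts of Ifi204, 37 of Ifi213, 33 of Ifi209, 20 of Ifi206 and 15 of Ifi211. Ifi204, which did not pass the filter, had 9, 20 and 7 counts in PS19 replicates 1, 3 and 4 and 2, 4, 3, 2 and 3 in WT. Its lowest PS19 library, at 0.602 CPM, was above the highest WT library, at 0.333. All members summed to 41.6 CPM in replicate 5 against 7.24, 13 and 7.83 in the other PS19 libraries. Microglia markers summed to 1019 to 1341 CPM in PS19 and 407 to 459 in WT at 9 months (341 to 492 at 4 months), and border macrophage markers to 19.7 to 34.4 and 6.43 to 21. Their part in the rise of Ifi207 was not tested.

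Aim2 rose with age in PS19 bulk RNA. It was 2.25 to 3.43 CPM at 4 months in PS19 and 2.37 to 3.82 in WT, and at 9 months 4.91, 5.28, 5.42 and 6.76 in PS19 and 5.05, 3.08, 4.15, 4.39 and 4.77 in WT. The change from 4 to 9 months in PS19 was 0.88 (SE 0.165, adjusted p = 0.00065, edgeR), so that Aim2 and Ifi207 were the 2 members called of 4, beside 17.3% of all genes. In WT it was 0.48 (adjusted p = 0.249). No member was called in WT between ages by edgeR, where no gene was called (0%), nor by DESeq2. At an unadjusted p under 0.05 stood 1 member, beside 1802 of 16133 genes. At 9 months PS19 differed from WT by 0.38 (SE 0.168, adjusted p = 0.15). At 4 months no member was called by edgeR or DESeq2, beside 0.0186% of genes called. None had an unadjusted p under 0.05 there, beside 595 of 16133 genes. The difference in the PS19 effect between ages was called for 1 of 4 members, Ifi207, beside 5.41% of all genes (4.37% higher).

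**Figure D5:**
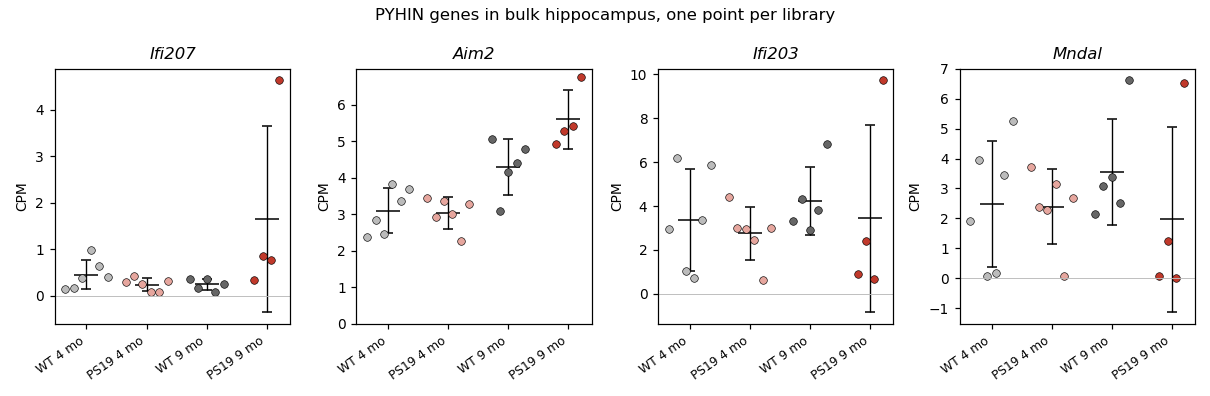
Bulk CPM of members in each library, by genotype and age, with the dash and bars as the mean ± SD. Ifi207 reaches 4.63 in 1 PS19 library at 9 months and 0.854 or less in the other 3, Aim2 is 4.91 to 6.76 in PS19 at 9 months against 2.25 to 3.43 at 4 months, and Mndal is near 0 in 5 libraries, of every group but WT at 9 months, and higher in the others.

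Mndal in bulk RNA fell into 2 separate sets of libraries that cut across the groups: 5 libraries had at most 2 counts and 16 had 16 to 104. In replicate order its counts were 30, 37, 56, 31 and 104 in WT and 1, 16, 0 and 86 (replicates 1, 3, 4 and 5) in PS19 at 9 months, and 26, 47, 1, 2, 54 and 67 in WT and 52, 23, 27, 44, 1 and 42 in PS19 at 4 months. Ifi203 was low in the same 5 libraries, with 11, 31, 8 and 128 counts in PS19 at 9 months, 40, 74, 14, 9, 53 and 75 in WT and 62, 29, 35, 34, 9 and 47 in PS19 at 4 months, and 46 to 107 in WT at 9 months. The fits gave Mndal -0.83 (adjusted p = 0.595) and Ifi203 -0.28 (adjusted p = 0.825) in PS19 against WT at 9 months, values that mix both sets. Without PS19 replicate 5 they were -2.94 for Mndal (adjusted p = 0.0906) and -1.64 for Ifi203 (adjusted p = 0.113).

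The 3 genes most like Ifi203 and the 3 most like Mndal over the 21 bulk libraries all lay on chromosome 1. Likeness was the Pearson correlation of log2 CPM with group means taken out. For Mndal these genes were Bpnt1 (185332149-185357777), Tatdn3 (191045826-191062932) and Ints7 (191575636-191623688), and for Ifi203 they were Bpnt1, Tatdn3 and Ufc1 (171288563-171295024), all on GRCm38. Of the 20 genes most like Mndal 9 lay on chromosome 1, and 8 of the 20 most like Ifi203, all between 169655501 and 191623688, against 6.0% of the 16117 genes ranked. The libraries with few Mndal counts had the low values of Bpnt1, and whether the mice differed in the sequence of this stretch of chromosome 1 was not tested. In replicate order Bpnt1 was 58.4, 62.3, 67.6, 56.8 and 62.4 CPM in WT and 50.1, 58.2, 46.5 and 62.6 in PS19 at 9 months, and 55.6, 67.5, 49.7, 50.2, 61.1 and 65.3 in WT and 62.6, 62.7, 58.7, 59.6, 49.0 and 53.3 in PS19 at 4 months.

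Since the libraries formed separate sets, correlations are given over the 16 libraries with at least 10 Mndal counts, a choice made after the counts were seen. There r was 0.88 between Ifi203 and Mndal, 0.54 between Mndal and Bpnt1 and 0.44 between Ifi203 and Bpnt1, values that share library and depth. For Ifi204 the 3 genes most alike over the 21 libraries included Gbp7 (r = 0.80) and Ifi27l2a (0.73), both interferon-inducible. Over the 17 cell classes of nuclei Ifi204 was most like Ms4a6d (0.98), Tnfaip8l2 (0.97) and Nckap1l (0.96), Ifi203 like Cd28 (0.85), Itga4 (0.84) and Gm26810 (0.83), and Mndal like Neu1 (0.84), Cables2 (0.83) and Itga4 (0.81).

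The pathway around the family was followed with 3 lists. In microglia-like nuclei of PS19 against WT, 21 of 28 tested interferon-stimulated genes were called higher and none lower, with a median of 2.02, against 9.59% of all genes called and a median of -0.03. Among them were Usp18, a brake on interferon signalling, at 3.22, Lgals3bp at 3.10, Sp100, a nuclear body protein, at 2.60, Samd9l at 2.34 and Slfn2 at 2.23. Of 12 interferon receptor and signalling genes 4 were called higher, among them the transcription factors Stat2 (1.33) and Irf9 (0.96) and the receptor Ifnar1 (0.79), while Ifngr1 differed by -0.43 (adjusted p = 0.0577). Of 15 DNA sensing and inflammasome genes 3 were called higher, Ikbke (3.96), the cytokine Il1b (3.40) and the caspase Casp4 (1.00), and 2 lower, the adaptor Sting1 (-0.90) and Casp8 (-0.69).

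In CLEAR_PS19 against CLEAR 0.311% of all genes were called, with a median of -0.01. One of 28 interferon-stimulated genes was called, Ifi44 at 4.63 (adjusted p = 0.0127, edgeR), although all 28 had a positive value and their median was 1.45. Ifit2 was at 2.63, Usp18 at 1.90, Slfn2 at 1.49 and Slfn8 at 1.43. No signalling gene of 12 and no DNA sensing gene of 15 was called, with Ikbke at 2.62 (adjusted p = 0.0856). In CLEAR_PS19 against PS19 the interferon-stimulated genes had a median of -0.98, and 1 of 28 was called lower, beside 0.0194% of all genes called and a median of 0.01.

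In bulk RNA at 9 months 30 of 34 interferon-stimulated genes were called higher (median 1.61), beside 12.8% of all genes (7.68% higher) with a median of -0.01. They included Ifi44 at 3.87, Trim30a at 2.07, Ifitm3 at 1.64, the RNA-activated kinase Eif2ak2 at 1.22 and Slfn5 at 1.14. Of 14 signalling genes 7 rose, among them Socs3 (2.29), Irf8 (1.73), Irf9 (1.07), Irf1 (0.68) and Ifngr1 (0.45). Of 15 DNA sensing genes 9 rose, among them Casp4 (2.67), Pycard, the adaptor of Aim2 (1.42), Sting1 (1.23), the pore-forming Gsdmd (1.14) and Casp8 (0.91). Sting1 and Casp8 were thus lower in PS19 microglia-like nuclei and higher in PS19 bulk hippocampus. At 4 months no gene of the 3 lists was called, and the interferon-stimulated genes had a median of -0.54. From 4 to 9 months 33 of 34 interferon-stimulated genes rose in PS19, beside 17.3% of all genes called, and none was called in WT, where all 34 had a negative value (median -0.57). The difference between the ages in the PS19 effect was called for 31 of 34, beside 5.41% of all genes.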

How the data were processed

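Nuclei of frozen hippocampus were sequenced with a droplet 3' kit, and whole hippocampal RNA in bulk. The authors deposited raw counts: of UMIs for each gene in each barcode, by Cell Ranger 5.0.1 (per the file headers), and of reads for each gene for bulk RNA, made with featureCounts 2.0.0 per a file header; mm10, STAR and cutadapt are named in the submitters' processing notes, and their settings are not given in the sources used here.

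The members and lists were chosen with earlier results of these data known. Nuclei with at least 300 genes and at most 5% mitochondrial UMIs were kept. The nuclei of highest scrublet score were then removed from each library as doublets. Their share was set beforehand at 0.8% for each 1000 nuclei, not by a scrublet call, and came to 6.11% to 13.46% of a library. Clusters (scanpy 1.11.5, 2000 variable genes without the family, Leiden resolution 1) were named from marker lists. For each class of nuclei the UMIs of a library were added up and tested with edgeR 4.0.16 (quasi-likelihood, TMM, filterByExpr, two-sided, Benjamini-Hochberg over all genes, called at an adjusted p under 0.05), all 4 genotypes in 1 fit with sex as a covariate; bulk counts were tested likewise over all 21 libraries without covariates. DESeq2 1.42.0 was an alternative. The tests were checked on simulated data. Thinned shares carry exact Clopper-Pearson 95% intervals, and a count of 0 allows 3 counts. Library sets come from a clustering of the summed granule neuron-like nuclei of each library, cut at 3 sets, and not from the labels.

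All members were named, and relatives with values where described. From each pathway list the 5 genes of smallest adjusted p were named in bulk at 9 months and in microglia-like nuclei for both tau comparisons, and for Ifi203, Ifi204 and Mndal the 3 most alike genes. Same-numbered libraries of CLEAR_PS19 and CLEAR deviated together in microglia-like nuclei (correlation of deviations 0.187 to 0.371), CA3-like nuclei (0.346 to 0.546) and all nuclei (0.456 to 0.609), and those of PS19 and WT in CA3-like (0.265 to 0.555) and all nuclei (0.351 to 0.452), and not elsewhere. Same numbers always shared a library set, and unlike numbers of set 3 deviated together as well. CLEAR_PS19 replicate 1 and CLEAR replicate 2 had 0.342 in microglia-like and 0.425 in CA3-like nuclei. Pairing by number and the library sets therefore cannot be told apart. Replicate 2 of PS19 at 9 months is not used here. Values of some genes that the naming rules select are not reported here.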

Additional observations from a re-analysis of the deposited data

Results flagged for a closer look

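Of 39 groups of 4 to 10 libraries examined, 6 had a library standing apart from the others by Dixon's criterion, which chance gives in about 1 of 20 groups. In bulk RNA at 9 months, PS19 replicate 5 had 4.63 CPM of Ifi207 (next library 0.854) and 1.52 CPM of Ifi206 (next 0.0776), and WT replicate 5 had 6.62 CPM of Mndal (next 3.37). In nuclei, CLEAR_PS19 replicate 3 had 17 CPM of Ifi209 in microglia-like nuclei (next 11.6), CLEAR replicate 3 had 42.5 CPM of Ifi203 in CA3 neuron-like nuclei (next 41.3, in a group whose values lay very close together), and the female CLEAR_PS19 replicate 4 had 73.7 CPM of Aim2 in CA3 neuron-like nuclei (next 44.6).

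The effect of the PS19 transgene on Ifi207 in bulk RNA differed between 9 and 4 months by 3.62 on the log2 scale, by edgeR's test of the difference itself (adjusted p = 0.0254), and was 2.28 (adjusted p = 0.112) without PS19 replicate 5 at 9 months. It was not called either with the replicate block (3.23, adjusted p = 0.061) or without WT replicate 5 at 4 months (3.48, adjusted p = 0.0524), and Ifi207 had no value without WT replicate 4 at 4 months.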

How the results depend on the processing

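Of 2379 member values over all alternatives, 2288 kept their side of the threshold, 92 of them with the other sign and neither value called, 76 became called and 15 lost a call; no call reversed. In microglia-like nuclei PS19 against WT, 5 to 7 members were called under every alternative run. Counts of members called that moved were as follows, and their cause was not tested. In microglia-like CLEAR_PS19 against CLEAR (1), DESeq2, the library set block and the replicate block gave 2 and no filter on low counts 5, and leaving out 1 library gave 0 to 2. In CLEAR_PS19 against PS19 (0), DESeq2 gave 1, the replicate block, whose numbers do not pair these samples, 5, no filter 6, doublets kept 6, and leaving out 1 library 0 to 5; the interaction (0) gave 1 without a filter. In CA3-like nuclei PS19 against WT (0), DESeq2 and no filter gave 1, leaving out 1 library 0 to 1; in CLEAR_PS19 against PS19 (0), DESeq2 gave 1, no filter 2, the replicate block 2, leaving out 1 library 0 to 1. Over all nuclei PS19 against WT (6) gave 7 by DESeq2 and with the library set block, both adding Aim2, and 3 to 7 when 1 library was left out, CLEAR_PS19 against CLEAR (0) gave 1 by DESeq2, and CLEAR_PS19 against PS19 (0) gave 5 by DESeq2, 6 with the replicate block and 0 to 5 without 1 library. In bulk at 9 months (1), no filter gave 4, fitting the compared libraries alone 0 and leaving out 1 library 0 to 2; for 9 against 4 months in PS19 (2), 6, 1 and 1 to 3; for the difference between ages (1), 3 without a filter, 0 with the replicate block and 0 to 2 without 1 library. The block changed no other count of members by over 1.5 times. Over all genes the number called was 472 to 1576 for PS19 against WT in microglia-like nuclei (987 as reported), 9 to 537 for CLEAR_PS19 against CLEAR (32) and 0 to 1823 for CLEAR_PS19 against PS19 (2), the highest with no filter, no filter and the replicate block. In CA3-like nuclei it was 1 to 67 for PS19 against WT (6), 3 to 86 for CLEAR_PS19 against CLEAR (3) and 1 to 1793 for CLEAR_PS19 against PS19 (4). For CLEAR against WT the replicate block, whose numbers do not pair these libraries, raised the genes called from 0 to 165 in microglia-like, 1 to 1763 in CA3-like and 1 to 4615 in all nuclei. Over all nuclei it was 225 to 2888 (1355), 4 to 223 (12) and 1 to 6323 (3) in that order, and in bulk 1185 to 2306 (2060) at 9 months, 1749 to 3014 (2788) between ages in PS19, 0 to 78 (0) in WT and 514 to 1083 (872) for the difference.

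With doublets kept, Ifi203 was 673 CPM in T cell-like nuclei against 801 with them removed, Mndal 225 against 395 in border macrophage-like and Aim2 198 against 298 in microglia-like nuclei. Shares without thinning and at 2000 UMIs were 34.7% and 6.92% for Ifi203 and 47.0% and 9.81% for Mndal in CA3, and 14.2% and 19.1% for Ifi204, 10.3% and 15.1% for Ifi207 and 41.1% and 47.9% for Aim2 in microglia-like nuclei. Without Aim2 the summed microglial level was 41.0 CPM in WT, 33.5 in CLEAR and 164 in CLEAR_PS19. Depth limits the WT and CLEAR microglia values, which rest on few UMIs, and most bulk members.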
